A study of Homo sapiens with 34 samples.

Results

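Writers and erasers of histone acetylation that work with the circadian clock were described here at the transcript level: the acetyltransferases EP300, CREBBP, KAT2A, KAT2B and KAT5, and the corepressor pair HDAC3 and NCOR1. The 7 genes were chosen by name and not by a threshold on any value, but with earlier results of these data known. All 7 were found among the 28690 loci of the deposited expression tables and among the 13979 loci with a mean of at least 1 FPKM (fragments per kilobase of transcript, scaled to the mapped reads of the library). The cells were *Bmal1*:*luc* U2OS, a line from human osteosarcoma with a luciferase reporter of *Bmal1* promoter activity. They received a dexamethasone pulse to synchronize them and were kept in 5 mM 6AN (6-aminonicotinamide, an inhibitor of the pentose phosphate pathway) or in the same volume of DMSO as control. RNA-seq libraries carried the circadian time labels 0 to 44 hr in steps of 4 hr, 12 per condition, with 1 library for each condition and time. ChIP-seq for BMAL1, CLOCK, H3K9ac, H3K4me3 and input was made after 24 hr with 6AN or DMSO, 1 library each, 10 in all. Both conditions share the reporter and the synchronization, and all values come from this 1 engineered line.

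Acetyltransferases move an acetyl group from acetyl-CoA to lysines of histones, which opens chromatin for transcription, and deacetylases remove it. EP300 (p300) and its close relative CREBBP (CBP) bind the BMAL1/CLOCK heterodimer as coactivators. HDAC3 gains its enzyme activity from NCOR1, and REV-ERB nuclear receptors recruit that pair to repress the *Bmal1* promoter. KAT2A (GCN5) and KAT2B (PCAF) are the alternative catalytic subunits of the SAGA and ATAC complexes, which acetylate histone H3, and KAT5 (TIP60) is the catalytic subunit of the NuA4 complex, which acetylates H4 and H2A.

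The 300 bp around the start sites of the 7 genes (250 bp before and 50 bp after, RefSeq, GRCh38.p14) were searched on both strands for the letters of a canonical E-box, CACGTG, of an E'-box, CACGTT, of the cyclic AMP response element, TGACGTCA, of the site that REV-ERB and ROR receptors bind, AGGTCA, and of the core of the antioxidant response element that NRF2 binds, TGACNNNGC. The first 2 motifs do not overlap each other. Only KAT5 and CREBBP held a match. KAT5 had an E-box at position -235 and an E'-box at position -200 relative to its start site, on chromosome 11 from 65712017 to 65712022 and from 65712052 to 65712057. CREBBP had an antioxidant core at position -97 relative to the upstream one of its 2 listed start sites, on chromosome 16 from 3880802 to 3880810. Among the 35116 RefSeq promoters of this length, 7.26% held the E-box letters, 5.34% those of the E'-box, 1.85% the cyclic AMP element, 13.8% the REV-ERB and ROR site and 13.3% the antioxidant core, so each match is common and describes letters only. The KAT5 and CREBBP promoters are shown because a BMAL1 peak covered their matches, and that of HDAC3 because it was the only member with lower transcript levels in 6AN. Capitals mark the matches.
KAT5, chr11:65712002-65712301, plus strand: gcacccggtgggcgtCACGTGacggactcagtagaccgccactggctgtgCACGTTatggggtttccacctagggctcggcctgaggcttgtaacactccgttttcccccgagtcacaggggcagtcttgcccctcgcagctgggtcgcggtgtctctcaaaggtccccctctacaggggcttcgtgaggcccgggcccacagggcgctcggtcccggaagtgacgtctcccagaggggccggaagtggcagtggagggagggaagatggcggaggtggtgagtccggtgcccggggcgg
CREBBP, chr16:3880664-3880963, minus strand: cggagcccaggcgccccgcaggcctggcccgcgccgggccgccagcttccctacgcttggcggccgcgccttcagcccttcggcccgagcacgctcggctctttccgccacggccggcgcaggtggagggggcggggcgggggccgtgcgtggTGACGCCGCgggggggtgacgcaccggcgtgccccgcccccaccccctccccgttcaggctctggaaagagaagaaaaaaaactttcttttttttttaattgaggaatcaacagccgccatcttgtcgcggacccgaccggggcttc
HDAC3, chr5:141636800-141637099, minus strand: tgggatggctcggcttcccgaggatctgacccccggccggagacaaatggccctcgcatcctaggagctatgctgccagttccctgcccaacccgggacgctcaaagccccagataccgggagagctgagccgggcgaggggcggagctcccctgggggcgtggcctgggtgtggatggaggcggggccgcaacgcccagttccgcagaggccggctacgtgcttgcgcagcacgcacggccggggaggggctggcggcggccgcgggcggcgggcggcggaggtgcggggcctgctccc

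The expression tables of control and 6AN were each normalized by the authors across their own 12 libraries, so levels in both are given side by side with no test between them. Tests of time were made within a table. In bulk RNA, fewer cells that express a gene and less RNA per cell cannot be told apart. Libraries resembled each other (Pearson's r of log2(FPKM + 1) between 0.848 and 0.918 over the expressed loci, which are not independent replicates), and the depth of a library relative to the others of its table ranged from 0.661 to 1.16 in control and from 0.808 to 1.38 in 6AN. Of 8 osteoblast lineage markers, 5 passed the filter, and COL1A2, SP7 and IBSP did not. The summed FPKM of the 8 was 427 to 579 in control and 138 to 305 in 6AN, which COL1A1 and SPARC, both lower in 6AN, mostly made up. ALPL was also lower at all 12 time points, while the mean log2 differences of RUNX2 and BGLAP were -0.0050 and -0.029. The part of these markers in the values below was not tested. Of 8 markers of other cell types, 0 passed the filter, and their summed level was between 0.758 and 3.20 FPKM.

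The 2 coactivators of BMAL1/CLOCK were higher in 6AN at each time point, and CREBBP by the larger margin. In control, EP300 (chromosome 22, 41092610 to 41180077 on hg38) had a lowest value of 21.8 FPKM, a median of 23.3 and a highest of 24.3. In 6AN it had a lowest value of 25.2 FPKM, a median of 26.8 and a highest of 30.3. The 2 ranges did not overlap, although the shift was small, with a mean fold of 1.16 and a mean difference in log2(FPKM + 1) of 0.20 ± 0.064 (SD over n = 12 time points). CREBBP (chromosome 16, 3725055 to 3880120) ran from 16.7 to 19.3 FPKM in control, with a median of 18.1. In 6AN CREBBP ran from 25.1 to 34.4 FPKM, with a median of 28.2, and the lowest 6AN library lay well above the highest control library. Its mean fold was 1.57, and its mean log2 difference of 0.62 ± 0.11 (SD, n = 12) was larger than that of 95.01% of expressed loci, against 76.9% for EP300. Both genes peaked in the 6AN library labelled 0 hr, which held 34.4 FPKM of CREBBP and 30.3 of EP300, but without that time point the mean log2 differences were still 0.60 and 0.19. How the time labels relate to the start of 6AN treatment is not given in the labels.

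The acetyltransferase of the NuA4 complex, KAT5, was also higher in 6AN at all 12 time points. KAT5 (chromosome 11, 65712002 to 65720938) ran from 13.6 to 17.6 FPKM in control, with a median of 15.1. In 6AN it ran from 17.2 to 28.5 FPKM, with a median of 22.2. The ranges met by a narrow margin: 11 of the 12 6AN libraries lay above the highest control library, and only that at 24 hr, with 17.2 FPKM, did not. The mean fold was 1.44 and the mean log2 difference 0.49 ± 0.19 (SD, n = 12). The gene RNASEH2C, a subunit of ribonuclease H2 that neighbours KAT5, was listed at the same coordinates, and whether the libraries kept strand was not stated in the sources used here, so reads of the pair cannot be fully told apart. RNASEH2C had a mean of 22.8 FPKM in control and 25.5 in 6AN, with overlapping ranges and a mean fold of 1.119.

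The alternative subunits of SAGA and ATAC had ranges that overlapped between conditions. KAT2A (chromosome 17, 42113111 to 42121364) ran from 19.4 to 27.6 FPKM in control, with a median of 21.8. In 6AN KAT2A ran from 22.4 to 30.5 FPKM, with a median of 26.9. The ranges overlapped, and 6AN was higher at 9 of 12 time points (mean log2 difference 0.24 ± 0.23, SD, n = 12). KAT2B (chromosome 3, 20040032 to 20154404), the member of lowest level, ran from 3.70 to 5.84 FPKM in control and from 4.42 to 6.29 in 6AN, with medians of 4.70 and 5.25. These ranges overlapped as well, and 6AN was higher at 10 of 12 time points (mean log2 difference 0.14 ± 0.17, SD, n = 12).

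The deacetylase was lower in 6AN, and its partner NCOR1 was not. HDAC3 (chromosome 5, 141620876 to 141636856) ran from 25.7 to 35.5 FPKM in control, with a median of 28.98. In 6AN HDAC3 ran from 20.5 to 24.9 FPKM, with a median of 22.9. Every 6AN library lay below every control library in these values, with a mean fold of 0.776 and a mean log2 difference of -0.35 ± 0.13 (SD, n = 12). NCOR1 (chromosome 17, 16030094 to 16215560) ran from 14.4 to 17.7 FPKM in control and from 16.1 to 19.2 in 6AN, with medians of 16.9 and 18.2. Its ranges overlapped, and 6AN was higher at 9 of 12 time points (mean log2 difference 0.09 ± 0.12, SD, n = 12). Of the 12 6AN libraries 8 lay above the highest control library, and the mean log2 difference was 0.14 with joint scaling and 0.15 with upper-quartile scaling.

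Of the 7 genes, 2 had 6AN values wholly above the control values (EP300 and CREBBP), and 5.89% of expressed loci did. The 1 gene wholly below was HDAC3, against 10.3% of loci, and 16.2% of loci had no overlap in either direction. EP300, CREBBP and KAT5 were higher at all 12 time points, as were 13% of loci, and HDAC3 was lower at all 12, as were 20.4%. The median of the mean log2 differences was 0.24 for the 5 acetyltransferases and -0.04 for all expressed loci. The scale between the tables bears on the calls nearest the edge. When all 24 libraries were scaled together by the median of ratios, KAT5 no longer overlapped, 17.1 FPKM being the highest control value and 17.5 the lowest in 6AN. HDAC3 then overlapped narrowly, with 25.02 FPKM as the lowest control value, 25.06 as the highest in 6AN and 10 of 12 6AN libraries below all controls. Under this scaling 7.70% of loci were wholly above and 8.17% wholly below, and no member turned direction.

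**Figure D1:**
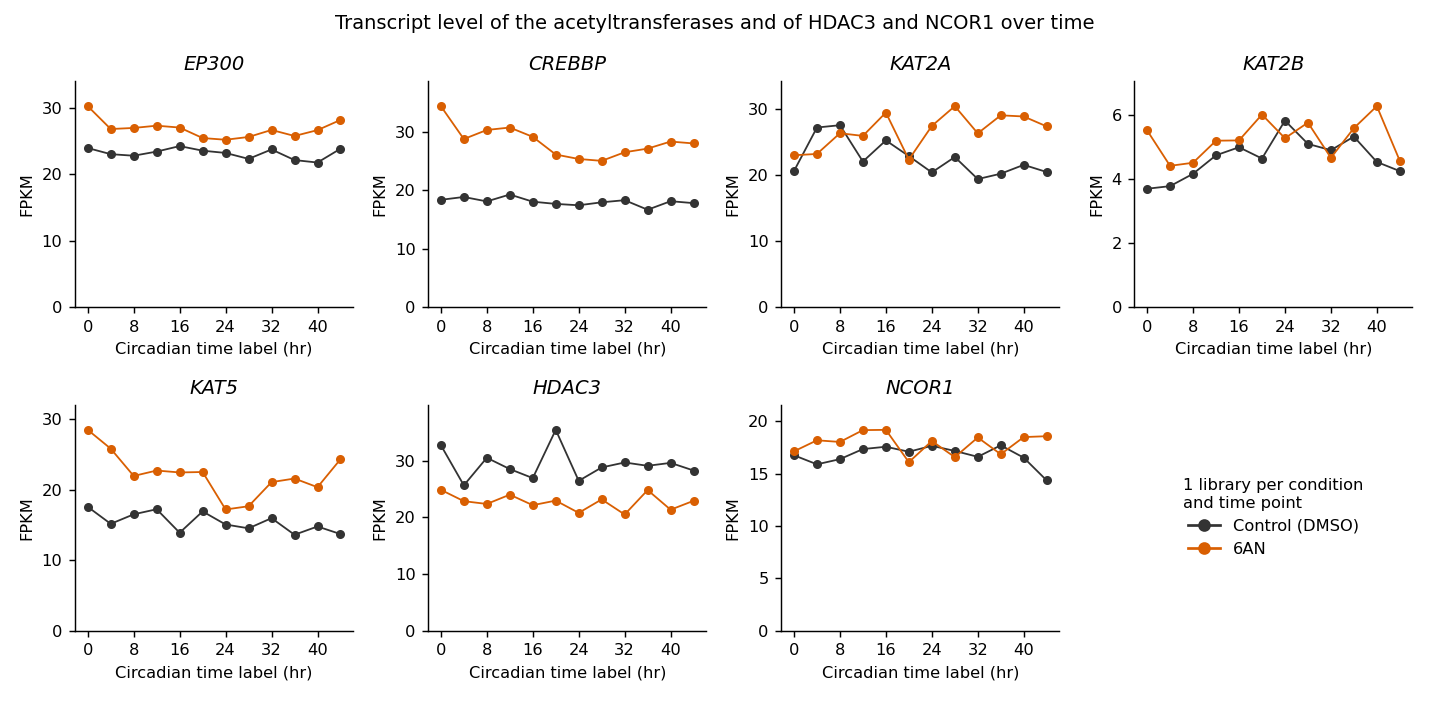
Transcript level in FPKM (vertical axes, starting at 0) against the circadian time label in hr (horizontal axes) for the 7 genes, with 1 library per point, control in black and 6AN in orange. CREBBP and EP300 in 6AN stayed above all control values, HDAC3 stayed below them, and the KAT2A curves parted from 24 hr on.

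**Figure D2:**
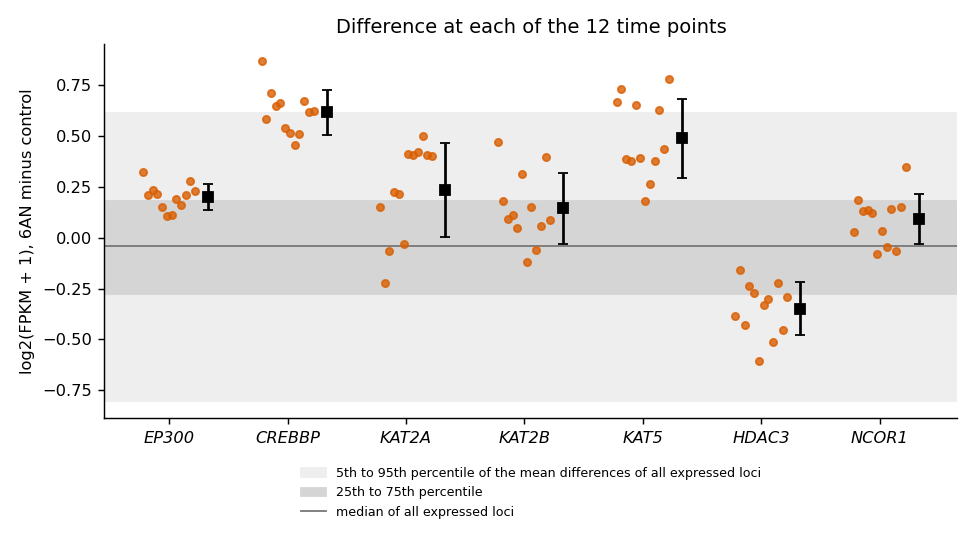
Difference in log2(FPKM + 1), 6AN minus control, at each of the 12 time points (points, in order of time from left to right) with mean and SD (squares and bars); bands give the 5th to 95th and 25th to 75th percentiles of the mean differences of the 13979 expressed loci. The mean of CREBBP, 0.62, lay at the upper edge of the wide band, and that of HDAC3, -0.35, below the narrow band.

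Because FPKM is scaled by gene length, the members could be ranked within a condition. In control the order by median was HDAC3, EP300, KAT2A, CREBBP, NCOR1, KAT5 and KAT2B. The ranges of the neighbours EP300 and KAT2A overlapped, as did those of CREBBP and NCOR1 and those of NCOR1 and KAT5, while the other neighbours did not. In 6AN the order was CREBBP, KAT2A, EP300, HDAC3, KAT5, NCOR1 and KAT2B, and neighbours overlapped except for EP300 and HDAC3 and for NCOR1 and KAT2B. CREBBP was below EP300 in each of the 12 control libraries, and in 6AN the ranges of the pair overlapped.

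Ratios of 2 genes of the same library do not depend on how a table was scaled. CREBBP stood at a median of 0.619 times HDAC3 in control, with a range of 0.498 to 0.735. In 6AN the ratio of CREBBP to HDAC3 had a median of 1.27 and ran from 1.08 to 1.38. The mean difference in log2 ratio was 1.01 ± 0.17 (SD, n = 12). The median ratios to HDAC3 in control and 6AN were 0.787 and 1.21 for EP300, 0.525 and 0.979 for KAT5, and 0.577 and 0.801 for NCOR1, each with no overlap. For KAT2A the medians were 0.7498 and 1.19, and for KAT2B 0.159 and 0.227, with overlapping ranges. So 4 of the 6 ratios lay wholly above control, as did 18.2% of the ratios of expressed loci to HDAC3, while 2.07% lay wholly below. Since HDAC3 is in each ratio, the 6 are not independent. The ratio of CREBBP to EP300 had a median of 0.768 in control and 1.06 in 6AN, with the highest control value at 0.832 and the lowest 6AN value at 0.977. NCOR1 relative to CREBBP had medians of 0.912 and 0.642, also with no overlap. KAT2A relative to KAT2B overlapped, with medians of 4.78 and 5.22.

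**Figure D3:**
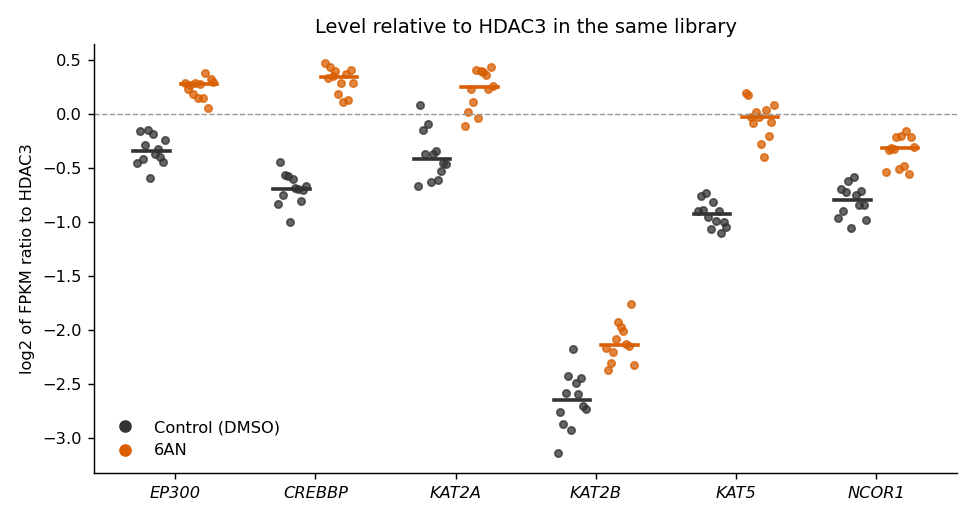
Log2 of the FPKM ratio to HDAC3 in the same library (vertical axis) for 6 genes, with 12 control libraries in black and 12 6AN libraries in orange; short lines are medians and the dashed line is equality with HDAC3. CREBBP and EP300 crossed from below HDAC3 in each control library to above it in each 6AN library.

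Whether the members changed over the 44 hr was asked next, with a linear trend of log2(FPKM + 1) fitted by limma to all expressed loci of a table. None of the 7 passed a Benjamini-Hochberg adjusted p of 0.05 in control, where 6.2% of 13824 loci did, or in 6AN, where 25.3% of 13859 did. At an unadjusted p under 0.05 were KAT2A and KAT5 in control, with 20.4% of loci, and KAT2A and CREBBP in 6AN, with 36.8%. The difference between the 2 trends, in which the scale of each table cancels, passed for KAT2A alone, and 8.85% of 13979 loci passed, 4.04% in its direction, with 22.8% at an unadjusted p under 0.05. KAT2A had a fitted change over 44 hr of -0.29 ± 0.12 (SE) in control and 0.26 ± 0.11 in 6AN. Neither trend passed by itself (limma adjusted p = 0.205 and 0.0876), and their difference was 0.55 ± 0.16 (limma adjusted p = 0.0372).

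In FPKM, KAT2A in control held its highest values at 4 and 8 hr, 27.2 and 27.6, and ran from 19.4 to 22.8 from 24 hr on. In 6AN it was at 23.03 and 23.2 FPKM at 0 and 4 hr and ran from 26.4 to 30.5 from 24 hr on. The mean log2 difference was 0.05 over the time points before 24 hr and 0.42 from 24 hr on, a split made after the values were seen. The call was close to its threshold: leaving out 1 time point ended it in 7 of 12 cases (those at 4, 8, 28, 32, 36, 40 and 44 hr), with limma adjusted p between 0.0198 and 0.149 over the 12. It also ended with no filter on low FPKM (adjusted p = 0.0575) and with a 24 hr cosine and sine in the model (adjusted p = 0.0732), while the sign held under each of these settings.

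CREBBP had a fitted change over 44 hr of -0.24 ± 0.095 (SE) in 6AN (limma adjusted p = 0.0884) and of -0.08 ± 0.053 in control. KAT5 had -0.29 ± 0.16 in 6AN and -0.24 ± 0.090 in control, with limma adjusted p of 0.208 and 0.144. EP300, HDAC3 and NCOR1 had fitted changes between -0.08 and 0.0033 in both conditions. KAT2B had 0.24 ± 0.13 in control and 0.10 ± 0.13 in 6AN. When 1 time point was left out, the 6AN values ran from -0.30 to -0.14 for CREBBP, from -0.45 to -0.15 for KAT5 and from 0.022 to 0.23 for KAT2B.

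**Figure D4:**
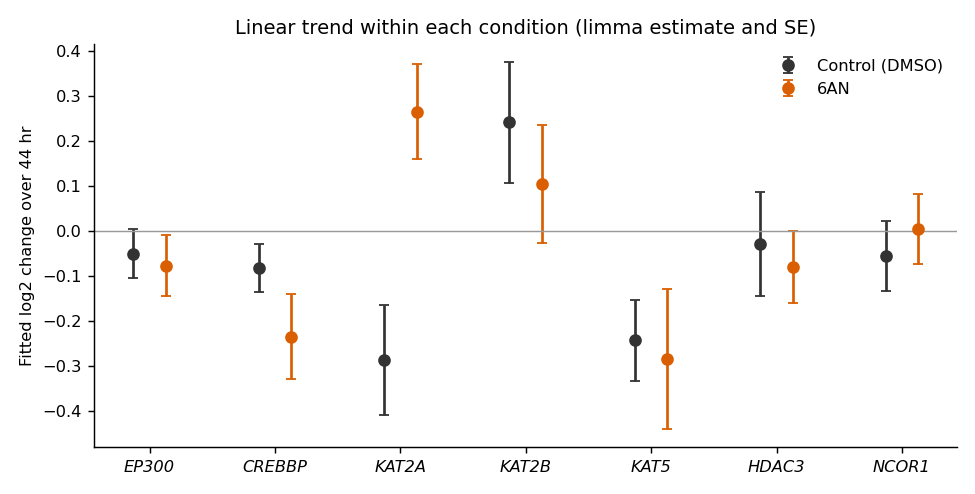
Fitted linear change in log2(FPKM + 1) over 44 hr (vertical axis, limma estimate with SE as bars) for the 7 genes, control in black and 6AN in orange. Only for KAT2A did the estimates lie on opposite sides of 0 by more than their errors, at -0.29 and 0.26.

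No rhythm with a period of 24 hr was detected in any member. By a permutation test that compared the ranks of the values with umbrella shapes of a 24 hr period, 0 of 7 reached p of at most 0.01 in either condition, where 0.823% of expressed loci did in each. The permutation p-values of the members lay between 0.643 and 0.983 in control and between 0.436 and 0.990 in 6AN. Harmonic regression fitted by limma gave 0 of 7 as well, with 1.05% and 1.19% of loci at p of at most 0.01, and 0 members had an unadjusted p under 0.05 by either tool. Over all loci, 0 passed an adjusted p of 0.05 by either tool, while 703 in control (5.03%) and 584 in 6AN (4.18%) had an unadjusted p under 0.05 by the umbrella test, and 715 (5.11%) and 664 (4.75%) by harmonic regression. The fitted amplitudes on the log2 scale were largest for KAT2B and KAT2A in 6AN, at 0.091 and 0.078, and smallest for HDAC3 in 6AN, at 0.0061. NR1D1, the REV-ERB receptor that recruits NCOR1 and HDAC3, had a permutation p of 0.00675 in control and 0.0173 in 6AN. Its paralog NR1D2 had permutation p-values of 0.0145 and 0.0498 and missed 0.01 in both. The paper, with the RAIN algorithm at p of at most 0.01, called NR1D1 and NR1D2 rhythmic in both conditions. The umbrella test used here thus missed rhythms that the paper called. The smallest amplitude that could be detected was not determined.

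BMAL1 peaks lay at 3 of the 5 acetyltransferase genes, and CLOCK peaks at KAT5 alone. Within 10 kb of the members, 4 merged intervals were listed, at EP300, CREBBP and KAT5, while KAT2A, KAT2B, HDAC3 and NCOR1 had 0. An interval of any library lay within 10 kb of 32.2% of expressed loci. At EP300 the interval chr22:41091526-41091871 held BMAL1 peaks of both conditions and lay 739 bp outside the locus. At CREBBP a BMAL1 peak of the 6AN library (chr16:3880642-3880842) lay 522 bp outside the 5' end of the locus and covered the antioxidant core, and a BMAL1 peak of the control library (chr16:3717441-3717641) lay 7414 bp beyond the other end. BMAL1 peaks of the control library lay within 10 kb of 16% of loci and those of the 6AN library within 10 kb of 21.6%, and CLOCK peaks near 2.45% and 10.3%.

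KAT5 was the member with peaks of BMAL1 and CLOCK in both conditions, as were 1.01% of expressed loci. The interval chr11:65711893-65712184 overlapped the start of the locus and covered both the E-box and the E'-box shown above. The start site in the authors' annotation lies at the start of the locus, upstream of the RefSeq start site used for the motif positions. Both motifs therefore lie downstream of the authors' start site, although upstream of the RefSeq one. In 1000 bp around this site, 36 bp from the authors' start site, the BMAL1 library of control gave a signal of 44.9, as tags scaled to 10000000 per library, and that of 6AN gave 37.99. CLOCK signal was 51.5 in control and 71.4 in 6AN, a ratio of 1.39. These signals rest on about 21 and 33 tags, and an exact (Clopper-Pearson) 95% interval of the ratio made from those rounded tags, which covers counting error only, ran from 0.791 to 2.56 and so held equality. The BMAL1 ratio was 0.846, and its 95% interval from 33 and 30 tags ran from 0.506 to 1.45, which also held equality. The log2 change in CLOCK signal was 0.46 at KAT5 and 1.10 at the median of the 439 shared sites of 6AN, of which 385 had a larger change. For BMAL1 it was -0.24 at KAT5 and 0.46 at the median of these sites, of which 412 had a larger change. The 439 sites were called in the 6AN libraries, a choice that favours higher signal in 6AN. At the 147 shared sites called in control, the CLOCK change was 0.43 at KAT5 and 0.86 at the median, with 118 larger. The BMAL1 change there was -0.28 at KAT5 and 0.22 at the median, with 130 larger. H3K9ac at KAT5 was 199 in control and 197 in 6AN (ratio 0.991, 95% interval from 28 and 92 tags 0.639 to 1.56), from libraries of 1409550 and 4700142 tags. H3K4me3 was 233 and 252 (ratio 1.08, 95% interval from 75 and 115 tags 0.796 to 1.46), and input was 10.1 and 10.9. Input changed by 0.10 on the log2 scale at KAT5 and by 0.37 at the median of the 439 sites. The changes at sites given above were not corrected for input, and its part in them was not tested. For H3K9ac the log2 change was -0.013 at KAT5 and 0.15 at the median of the 439 sites, of which 285 had a larger change. With 1 library per antibody and condition, none of these differences has a replicate check.

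**Figure D5:**
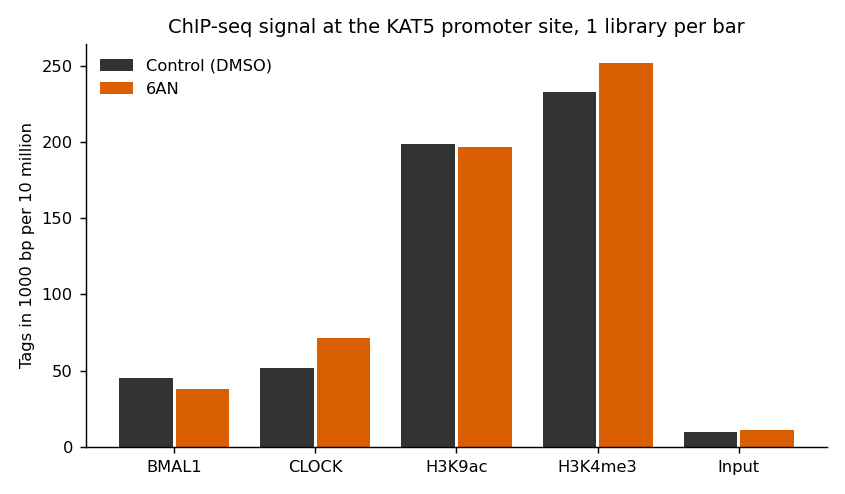
ChIP-seq signal at the BMAL1/CLOCK site of the KAT5 promoter, in tags per 1000 bp scaled to 10000000 tags (vertical axis), with 1 library per bar, control in black and 6AN in orange. CLOCK was 51.5 and 71.4, BMAL1 44.9 and 37.99, and both histone marks stood far above input.

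The other enzymes and partners of the members were neither all higher nor all lower, and the counts below stand beside the 5.89% of expressed loci wholly higher and 10.3% wholly lower (7.70% and 8.17% with joint scaling). Of 13 other acetyltransferases that passed the filter, 1 was wholly higher in 6AN (NCOA1, a nuclear receptor coactivator, with means of 9.44 and 11.9 FPKM) and 1 wholly lower (HAT1, which acetylates new histone H4, with 53.7 and 34.6). NCOA3, of the same family as NCOA1, fell within 6AN by 0.27 ± 0.070 (SE) on the log2 scale over 44 hr (limma adjusted p = 0.016), a call that ended without 0 or 44 hr (limma adjusted p up to 0.0648). KAT6B was the 1 gene of this list with an umbrella p of at most 0.01 (permutation p = 0.00278 in control and 0.436 in 6AN). In each condition 0.823% of expressed loci reached this p and 0 passed an adjusted p of 0.05, so it is not read as a rhythm. The median of the mean log2 differences of this list was 0.05.

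Among 17 SAGA and ATAC subunits, 3 were wholly higher and 0 wholly lower, with a median of -0.12. SGF29, which reads methylated H3K4, had means of 6.78 FPKM in control and 12.03 in 6AN, TADA2B, an adaptor of the SAGA acetyltransferase module, 5.93 and 8.82, and ATXN7, of the deubiquitinase module, 8.12 and 9.57. Of 16 NuA4 subunits, 1 was wholly higher, EPC2, with 12.3 and 16.4 FPKM, and 4 were wholly lower, with a median over the list of -0.11. The 4 were the MRG-domain proteins MORF4L1 (273 and 210 FPKM) and MORF4L2 (103 and 65.7), the helicase RUVBL1 (44.5 and 33.1) and the actin-like ACTL6A (52.4 and 40.1). With joint or upper-quartile scaling RUVBL1 overlapped, which left 3. KAT5 differed in direction from the 4 subunits named, but these were picked for being wholly lower. Of the 16 subunits, 2 were higher at all 12 time points, as KAT5 was, EPC2 among them. Another 5 were lower at all 12. Of expressed loci, 13% were higher and 20.4% lower at all 12 time points.

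Of 7 partners of HDAC3 and NCOR1, 0 lay wholly above or below control, and the median difference was 0.14. TBL1XR1, a WD40 subunit of the corepressor, was lower in 6AN at all 12 time points, with means of 13.95 and 11.05 FPKM. CORO2A, another subunit, had 4.68 and 4.09 FPKM with overlapping ranges. Within 6AN, TBL1XR1 rose by 0.22 ± 0.048 (SE) over 44 hr and CORO2A fell by 0.35 ± 0.10 (limma adjusted p = 0.00582 and 0.0247), where 25.3% of loci had a trend. The CORO2A call ended in 3 of 16 alternatives (no filter on low FPKM, or without 0 or 40 hr), with limma adjusted p up to 0.0713. Among 9 other zinc-dependent deacetylases, HDAC5 (14.4 and 23.7 FPKM) and HDAC9 (8.76 and 18.3), both of class IIa, were wholly higher. HDAC2 (26.7 and 22.6) was wholly lower, although it overlapped with joint or upper-quartile scaling. HDAC7, the third class IIa member named here, was higher at all 12 time points with means of 43.1 and 52.0 FPKM but overlapping ranges, and within 6AN it fell by 0.46 ± 0.096 (SE) over 44 hr (limma adjusted p = 0.00487). Of 3 BET proteins, which read acetylated lysines, 0 were without overlap, and BRD2 fell within 6AN by 0.24 ± 0.058 (SE) over 44 hr (limma adjusted p = 0.00967).

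The members also differed in which of their libraries rose and fell together. After each table was centred on its own mean, EP300 and CREBBP had a Pearson's r of 0.74 over the 24 libraries, CREBBP and KAT5 of 0.72, and EP300 and KAT5 of 0.64. These came mostly from 6AN, with r of 0.87, 0.78 and 0.80 there against 0.29, 0.54 and 0.27 in control, and the 0 hr library, which held the highest value of all 3, is in each. HDAC3 and NCOR1 had r of -0.12, and KAT2A and KAT2B -0.14. Among all expressed loci, the most alike to CREBBP were NUMA1 (r = 0.89) and HSPG2 (0.85), to KAT5 SMARCD1 (0.84) and RAB11B (0.84), to EP300 FAM83H (0.80) and GUCD1 (0.78), to KAT2B NAB1 (0.78) and LMBRD2 (0.77), to KAT2A ZMYM6 (0.77) and COL27A1 (0.74), to HDAC3 SELT (0.76) and UFC1 (0.73), and to NCOR1 XYLB (0.71) and PLPP5 (0.66). The best partner of an expressed locus had a median r of 0.78, so only the values of CREBBP, KAT5 and EP300 were above that of a typical locus. The points share libraries and their depth, so these coefficients are descriptions.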

How the data were processed

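RNA-seq was done on 24 libraries and ChIP-seq on 10. The authors deposited FPKM per locus, made with TopHat, Bowtie and Cufflinks on hg38 from rRNA-depleted RNA, in 1 table per condition. Whether the RNA extracts made in triplicate were pooled was not stated, and versions were not given in the sources used here. For ChIP-seq (Bowtie2 and HOMER) the authors deposited signal, as tags in 1000 bp scaled to 10000000 tags, and a HOMER peak score for intervals joined within 200 bp. Peaks were called per library. The number of per-sample columns left unused was 0. Each group held 1 library per time point, so p-values measure spread around a time course, which may be technical.

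The members and lists were chosen with earlier results of these data known. Genes named were the 7 members, list genes called in any test or with no overlap between conditions (the 3 largest changes where more), and the 2 loci most alike to each member. KAT6B, SUPT7L, MORF4L1, ACTL6A, HDAC2, RNASEH2C, NR1D2, BGLAP, RUNX2, ALPL and MIR3135A fall outside this rule and were named after their values were seen. The result of 1 list gene is not reported here. Loci with a mean FPKM of at least 1 were kept, a pseudocount of 1 was added, and trends and harmonic regression were fitted with limma 3.58.1 in R 4.3.3, with Benjamini-Hochberg adjustment over all loci tested. Loci with no variance dropped out of a fit. The umbrella test, built after RAIN, which was not run here, folded 12 time points into 6 phases with rises of 8, 12 or 16 hr and 1000000 random orders. Python 3.11.15, NumPy 2.4.6, pandas 2.3.3, SciPy 1.17.1 and matplotlib 3.10.9 were used. All tests were two-sided except the umbrella test. Methods were tested on simulated data with independent normal noise and planted trends and 24 hr rhythms. That setting is simpler than these data and does not show what size of change could be detected in them. No read totals were used for RNA-seq, so FPKM has no counting interval. Alternatives covered scaling, pseudocount, filter, rhythm test, added 24 hr terms, pairing by time point, distance to peaks, and leaving out each time point.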

Additional observations from a re-analysis of the deposited data

Results flagged for a closer look

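The trend over time differed between 6AN and control for KAT2A, by 0.55 on the log2 scale over 44 hr (limma adjusted p = 0.0372), as given above. Among the genes listed around the members, the trend also differed for SUPT7L, a SAGA subunit (0.34, limma adjusted p = 0.0469), RUVBL1, a NuA4 helicase (0.36, 0.0405), and NR1D1 (-1.50, 0.0446). Of 17 alternatives, 13 ended the call for SUPT7L, 9 for RUVBL1, 11 for NR1D1 and 9 for KAT2A, with limma adjusted p up to 0.167, 0.173, 0.159 and 0.149. The osteoblast lineage markers COL1A1 (-1.18, limma adjusted p = 0.000426) and SPARC (-0.82, 0.00137) differed as well, in each of 17 alternatives. Of the 13979 expressed loci, 8.85% had such a difference.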

How the results depend on the processing

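All 119 alternative values of the members' level differences kept their direction and moved by less than 1 SD over time points. For most settings this could not have come out otherwise. The filters do not alter a member's values. Leaving out 1 of 12 time points moves a mean by well under 1 SD, too little to turn any member's direction. Only the changes of scaling and pseudocount could have failed. The number of members with no overlap between conditions was 3 under each scale but the upper quartile, where it was 4 (with joint scaling KAT5 took the place of HDAC3), and it was 3 to 4 when 1 time point was left out, the 4th being KAT5 without 24 hr. Of all loci, 824 were wholly higher and 1438 wholly lower as deposited, 1076 and 1142 with joint scaling. The number of members whose trend differed was 1, and 0 with no filter or with the 24 hr cosine and sine, where KAT2A missed the threshold. Leaving out 1 time point gave 0 to 1 members for this difference and 0 to 1 for the trend in control, where KAT2A passed without 0 hr (limma adjusted p = 0.0461). The labels give no replicate numbers, so libraries were paired by labelled time: this replicate block also called 1 member, KAT2A (limma adjusted p = 0.0314), with 1357 loci called against 1237, and changed the call of no other member. Within 50 kb there were 7 intervals, and 1 lay in a locus itself. Fitted changes that did not pass crossed 0 in some settings: NCOR1 in 6AN was -0.0084 with joint scaling and -0.029 with the cosine and sine. Over the 12 sets without 1 time point, it ran from -0.031 to 0.030 in 6AN and from -0.097 to 0.053 in control, EP300 from -0.14 to 0.00058 in 6AN, and HDAC3 from -0.12 to 0.057 in control. Differences in trend ran from -0.067 to 0.038 for EP300, -0.27 to 0.020 for KAT2B, -0.23 to 0.058 for KAT5, -0.10 to 0.024 for HDAC3 and -0.080 to 0.12 for NCOR1. No rhythm call changed under the alternatives run, all of which kept a period of 24 hr.

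Levels rest on separately normalized tables and 1 library per time point, so no error between experiments is known. About 21 to 115 tags per antibody behind the KAT5 site limit what its signals can show. The causes of the changed calls were not tested.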

Other observations

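The microRNA locus MIR3135A, listed at the coordinates of KAT2B, had 217 FPKM in the 6AN library at 40 hr and was listed at 0 in the other 11 6AN libraries and in all 12 control libraries. Because FPKM is scaled by gene length, few reads can give such a value at a transcript as short as a microRNA. The number of reads behind it is not known, so it is not read as expression.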
